A study of Mus musculus with 6 samples.

Results

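The circadian clock was examined in inguinal white adipose tissue (iWAT) of cold-acclimated mice through 10 clock genes, Arntl, Npas2, Per1, Per2, Per3, Cry1, Cry2, Nr1d1, Nr1d2 and Dbp, chosen by name from the 16538 genes of the deposited RNA-Seq table. All 10 were listed, and all 10 averaged 10 or more normalized counts, the minimum for testing. The study compared 3 control samples with 3 samples from adipocyte-specific Nrg4-KO mice (NRG4-AKO in the labels, AKO here). The labels call the controls wt, whereas the paper describes them as fl/fl littermates, which carry the floxed Nrg4 allele without Cre. By design the same allele is deleted in AKO mice by Adiponectin-Cre, a driver active in adipocytes, so that Nrg4 stays intact in the other cells of the depot. All mice were kept at 8 degrees Celsius, for 10 days by the labels and for a longer time by the paper, and RNA from 2 mice was pooled into each sample. The labels give no age or sex, and neither they nor the paper give the time of day at which iWAT was collected or the order of collection. Nrg4 itself had 3128, 3102 and 3092 normalized counts in control and 2577, 2627 and 2691 in AKO, counted over the whole gene. All AKO values lay below all controls, but Nrg4 was still abundant in AKO iWAT, from 0.778-fold to 0.922-fold of control (95% interval), with a log2 fold change of -0.24 and an adjusted p of 0.298 from limma. The sources used here do not say which exons are deleted, so these counts do not measure the extent of the deletion.

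The mammalian clock is a feedback loop of transcription. ARNTL (also called BMAL1) pairs with CLOCK or its paralog NPAS2 and binds E-box elements in the Per, Cry, Nr1d1, Nr1d2 and Dbp genes. PER and CRY proteins then repress ARNTL and its partner, while the nuclear receptors REV-ERBα (Nr1d1) and REV-ERBβ (Nr1d2) repress Arntl and Npas2 through ROR elements. Arntl and Npas2 transcripts therefore run in opposite phase to those of Dbp, Nr1d1 and the Per genes, and tissues collected at different clock times differ in opposite directions in the opposed groups. Cry1 peaks between them and Cry2 is weakly rhythmic. REV-ERBα is also known in brown fat as a repressor of thermogenic genes.

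Promoters of 4 genes are shown because they hold the short elements through which the loop runs, and the rest of the text refers to their genes. They are RefSeq sequences of GRCm38.p6, 5′ to 3′, upstream of an annotated start. Each ends before the first annotated exon base of the gene that falls within its window. The Per1 stretch lies inside the whole gene as positioned below, upstream of an internal annotated start. Capitals mark the E-box CACGTG (Per1 and Cry1), the related element CACGTT or its reverse complement AACGTG (Cry1 and Nr1d1) and the D-box TTATGTAA (Per3), to which DBP binds.
Per1, chr11:69098699-69098947 (+ strand): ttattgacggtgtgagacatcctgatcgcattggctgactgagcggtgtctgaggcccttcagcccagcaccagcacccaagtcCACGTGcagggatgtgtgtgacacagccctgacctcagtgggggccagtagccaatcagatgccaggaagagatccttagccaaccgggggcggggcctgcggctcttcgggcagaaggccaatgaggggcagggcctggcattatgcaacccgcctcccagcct
Cry1, chr10:85185065-85185304 (- strand): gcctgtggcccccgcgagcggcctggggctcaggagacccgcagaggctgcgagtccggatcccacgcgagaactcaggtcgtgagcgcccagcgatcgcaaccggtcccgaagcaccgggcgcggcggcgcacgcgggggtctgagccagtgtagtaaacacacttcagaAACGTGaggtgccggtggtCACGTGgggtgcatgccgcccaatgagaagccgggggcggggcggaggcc
Nr1d1, chr11:98775378-98775627 (- strand): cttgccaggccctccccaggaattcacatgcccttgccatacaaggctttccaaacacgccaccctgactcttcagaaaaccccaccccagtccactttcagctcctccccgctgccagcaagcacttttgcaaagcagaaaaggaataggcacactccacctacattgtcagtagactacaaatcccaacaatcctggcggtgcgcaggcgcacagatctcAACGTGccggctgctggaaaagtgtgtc
Per3, chr4:151044708-151044915 (- strand): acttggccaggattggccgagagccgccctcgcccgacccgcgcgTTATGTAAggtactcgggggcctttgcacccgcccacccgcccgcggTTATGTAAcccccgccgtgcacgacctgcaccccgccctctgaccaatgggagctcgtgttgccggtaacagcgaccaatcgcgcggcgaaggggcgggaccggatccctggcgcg
RefSeq promoters were at hand for 9 of the 10 genes. In the 250 bases before each start, searched on both strands, the E-box CACGTG was present for 2 of the 9 genes and for 6.86% of 27025 genes. CACGTT was present for 3 of the 9 against 4.50% of all genes, and TTATGTAA for 1 of the 9 against 0.977%. The full ROR element had no match in the 9 genes, with 0.396% of all genes holding one. A match describes these letters in this window only, and no match says only that the letters are not there.

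None of the 10 clock genes differed detectably between AKO and control iWAT. In limma on log2(normalized count + 1), 0 of the 10 passed an adjusted p under 0.05 (Benjamini-Hochberg over 13855 genes), where 0.0144% of all genes passed. Before adjustment 0 of the 10 had a p under 0.05, against 9.10% of all genes, and 0 of the 10 had groups without overlap, against 14.5% of all genes. Log2 fold changes were below 0 for 5 genes and above 0 for 5, from -0.09 (Nr1d1) to 0.11 (Nr1d2), with a median of 0.00 that lay beside 0.01 over all genes tested. The median absolute log2 fold change was 0.06 for the 10 genes and 0.10 for all genes. The quasi-likelihood test of edgeR and DESeq2, both on whole reads, also called 0 of the 10, with 0.0144% and 0.901% of all genes called. The adjusted p-values of the 10 genes from limma ran from 0.669 to 0.999.

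**Figure D1:**
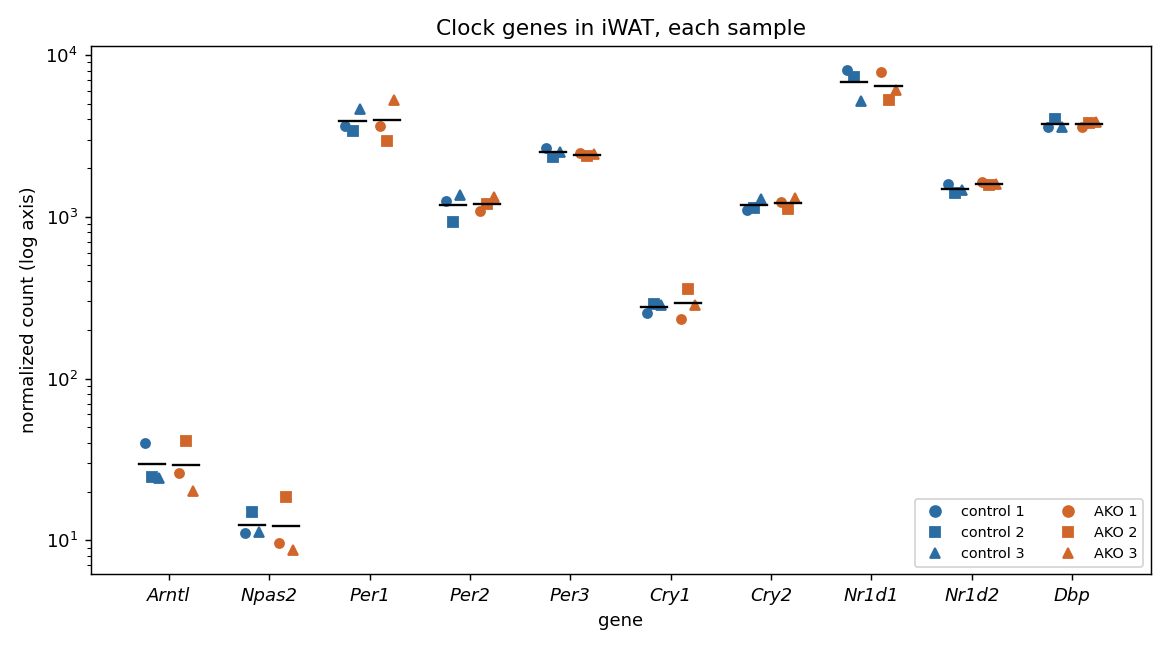
Normalized counts (log axis) of the 10 clock genes in each of the 6 samples, with control in blue, AKO in orange, a marker shape per replicate number and a black line at each group mean (n = 3). For every gene the points of the groups overlap, from about 10 normalized counts of Npas2 to 8087 of Nr1d1.

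Arntl (chr7:113207465-113314126, + strand), the shared partner of the activating complex, was barely expressed. Positions of this and the other genes are those of the whole gene in GRCm38 (GENCODE M21). The normalized counts of Arntl were 40.1, 24.7 and 24.4 in control and 25.9, 41.0 and 20.2 in AKO. Control replicate 1 and AKO replicate 2 were high and the other 4 samples low, so the split ran across the genotypes. Control averaged 29.8 ± 8.99 and AKO 29.1 ± 10.7 (SD, n = 3 each), and the log2 fold change was -0.05 (95% interval -0.82 to 0.71, adjusted p = 0.981 from limma). Npas2 (chr1:39193731-39363236, + strand), the alternative partner of ARNTL, had 11.0, 15.1 and 11.2 normalized counts in control and 9.60, 18.5 and 8.68 in AKO. AKO replicate 2 was again the highest sample and AKO replicate 3 the lowest, with the controls between them. Its log2 fold change was -0.08 (95% interval -0.99 to 0.84, adjusted p = 0.976 from limma). At these depths counting alone gives a coefficient of variation of 18.4% for Arntl and 28.5% for Npas2. The spread of Npas2 in the control samples, 18.3%, was below that figure and so understates its error. The intervals of both genes are wide, reaching from 0.568-fold to 1.63-fold for Arntl and from 0.504-fold to 1.78-fold for Npas2.

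The 3 Period genes, which encode the repressors that close the loop, were abundant in both genotypes. Per1 (chr11:69095217-69109960, + strand) had 3659, 3379 and 4620.2 normalized counts in control and 3658, 2934 and 5301 in AKO. The AKO samples held both the lowest and the highest value, and the log2 fold change was 0.00 (95% interval -0.48 to 0.48, adjusted p = 0.999 from limma). Per2 (chr1:91415982-91459324, - strand) had 1253, 926 and 1367 normalized counts in control and 1089, 1199 and 1325 in AKO. Control replicate 2 was the lowest sample, and the log2 fold change was 0.04 (95% interval -0.29 to 0.38, adjusted p = 0.964 from limma). Per3 (chr4:151003652-151044665, - strand), whose promoter above holds the D-box at 2 places, had 2680.4, 2351 and 2512 normalized counts in control and 2476, 2365 and 2430.5 in AKO. Its highest sample was only 1.14-fold above its lowest, and the log2 fold change was -0.05 (95% interval -0.20 to 0.10, adjusted p = 0.876 from limma). The interval for Per3 spans 0.868-fold to 1.07-fold.

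The cryptochromes, the partners of the PER proteins, did not pass the test either. Cry1 (chr10:85131700-85185064, - strand) had 253, 289 and 287 normalized counts in control and 234, 359 and 284 in AKO. Both its lowest and its highest sample were AKO samples, and the log2 fold change was 0.06 (95% interval -0.29 to 0.42, adjusted p = 0.943 from limma). Cry2 (chr2:92403646-92434043, - strand) had 1106, 1127 and 1291 normalized counts in control and 1242, 1111 and 1312 in AKO. Replicate 3 was the highest sample of Cry2 in each group, and the groups spanned nearly the same range, with a log2 fold change of 0.06 (95% interval -0.15 to 0.26, adjusted p = 0.903 from limma). Of the exon bases of Cry2, 4.67% are shared with a noncoding gene on the other strand.

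Nr1d1 (chr11:98767932-98775333, - strand) was the most abundant of the 10 genes. It had 8087, 7313 and 5181 normalized counts in control and 7905, 5263 and 6052 in AKO, so that each group held high and low samples. The means were 6860.4 ± 1505 (SD, n = 3) and 6407 ± 1356 (SD, n = 3), with a log2 fold change of -0.09 (95% interval -0.54 to 0.35, adjusted p = 0.928 from limma). Nr1d1 lies tail to tail with Thra, a thyroid hormone receptor gene, and 8.55% of its exon bases are shared with Thra on the other strand. Thra itself had 1545, 1476.5 and 1347 normalized counts in control and 1511, 1476 and 1545 in AKO. Nr1d2 (chr14:18204054-18239127, - strand) had 1590, 1407 and 1472 normalized counts in control and 1639, 1577 and 1598 in AKO. The lowest AKO sample lay just under the highest control sample, and the other 2 AKO samples lay above every control. Its log2 fold change of 0.11 (95% interval -0.04 to 0.26) had the smallest p of the 10 genes, namely 0.669 after adjustment in limma, and an exact permutation p of 0.2 where 0.1 is the smallest possible. Without control replicate 1 the log2 fold change of Nr1d2 was 0.16, with an adjusted p of 0.488 from limma.

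Dbp (chr7:45705088-45710203, + strand), which encodes a transcription factor that acts on D-boxes, had the narrowest range over the 6 samples. It had 3590, 4019 and 3591 normalized counts in control and 3598, 3775 and 3837 in AKO. The highest sample was 1.12-fold above the lowest over all 6, and the AKO values lay inside the range of the controls. The means were 3733 ± 247 (SD, n = 3) and 3737 ± 124 (SD, n = 3), and the log2 fold change was 0.00 (SE 0.07, adjusted p = 0.995 from limma). The 95% interval ran from 0.899-fold to 1.12-fold. Of the exon bases of Dbp, 18.0% are shared with Sphk2 on the other strand, and the sources do not say whether counting used strand.

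**Figure D2:**
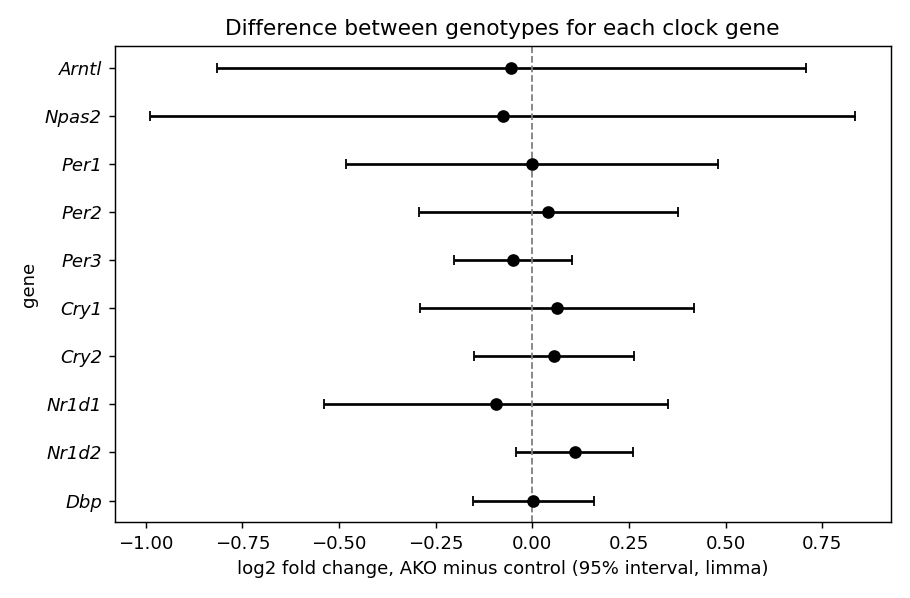
Log2 fold change, AKO minus control, of each clock gene on the log2(normalized count + 1) scale, with 95% intervals from limma (n = 3 samples per group). All 10 intervals include 0, and they are narrowest for Nr1d2, Per3 and Dbp and widest for Arntl and Npas2.

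Levels of different genes were compared per kilobase of annotated exon. Nr1d1 was highest, with 2229.6 ± 489 normalized counts per kilobase in control and 2082 ± 441 in AKO (SD, n = 3 each), followed by Dbp with 1247 ± 82.6 and 1249 ± 41.4. Per1 came next, with a median of 649.7 over the 6 samples, and these 3 genes did not overlap each other in any sample. Nr1d2 (median 293) and Per3 (median 255) overlapped in range, although Nr1d2 was the higher in all 6 samples, as did Per2 (209) and Cry2 (187), where Per2 was higher in 4 of 6. Cry1 had a median of 85.5, above every value of Arntl (median 3.37) and Npas2 (median 2.32), whose ranges overlapped. In each sample Dbp per kilobase was from 225 to 476 times Arntl per kilobase. The genes of the E-box group were high and the activators low in every sample of both genotypes.

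**Figure D3:**
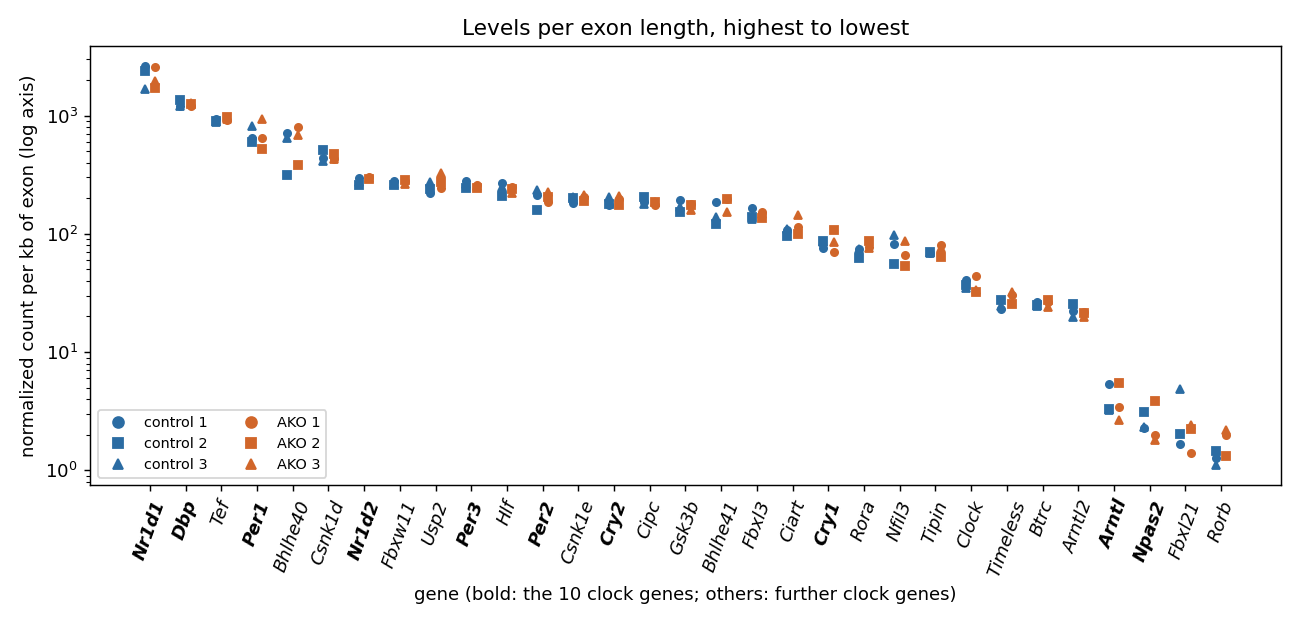
Normalized counts per kilobase of exon (log axis) for the 10 clock genes (bold) and further clock genes in each sample, ordered by their mean over the 6 samples. Nr1d1 and Dbp lead the order, and Arntl and Npas2 sit near its end in all 6 samples.

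Opposite-phase genes were then set against each other within each sample, to see whether the groups stood at different clock times. The contrast used was the mean log2(normalized count + 1) of Per1, Per2, Per3, Nr1d1, Nr1d2 and Dbp minus the mean of Arntl and Npas2. Control samples had 7.01, 6.996 and 7.29, whereas AKO samples had 7.36, 6.46 and 7.68. The AKO samples held both the lowest and the highest value, and all controls lay between them. The group means were 7.10 ± 0.16 (SD, n = 3) and 7.17 ± 0.63 (SD, n = 3), a difference of 0.07 on the log2 scale against a pooled SD within groups of 0.46. The difference was 0.42 without AKO replicate 2, -0.03 without AKO replicate 1 and -0.19 without AKO replicate 3, so that its direction turned on single samples. With control replicate 1 and AKO replicate 2 both left out, it was 0.38, and the 2 AKO values left lay above the 2 controls left. The spread came mainly from the activators, whose mean ran from 3.84 to 4.84, while the mean of the other 6 genes ran from 11.30 to 11.52. No time course is part of these data, so the contrast was not converted into hours.

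Within the samples, the opposed genes did not move as 1 block. AKO replicate 2 was 0.51 above the 6-sample mean in Arntl and 0.59 above in Npas2 on the log2 scale, and 0.39 below in Per1 and 0.31 below in Nr1d1. AKO replicate 3 had the reverse for Arntl (-0.47), Npas2 (-0.42) and Per1 (0.46), but Nr1d1 was 0.11 below its mean there too. Control replicate 1 was high in both Arntl (0.48) and Nr1d1 (0.31), which run in opposite phase. Dbp stayed within 0.11 of its mean in every sample, and Nr1d2 within 0.14. Over the 6 samples Pearson's r was -0.74 between Arntl and Per1, 0.08 between Arntl and Nr1d1 and -0.29 between Arntl and Dbp. These correlations share libraries and scaling and are given as a description only.

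**Figure D4:**
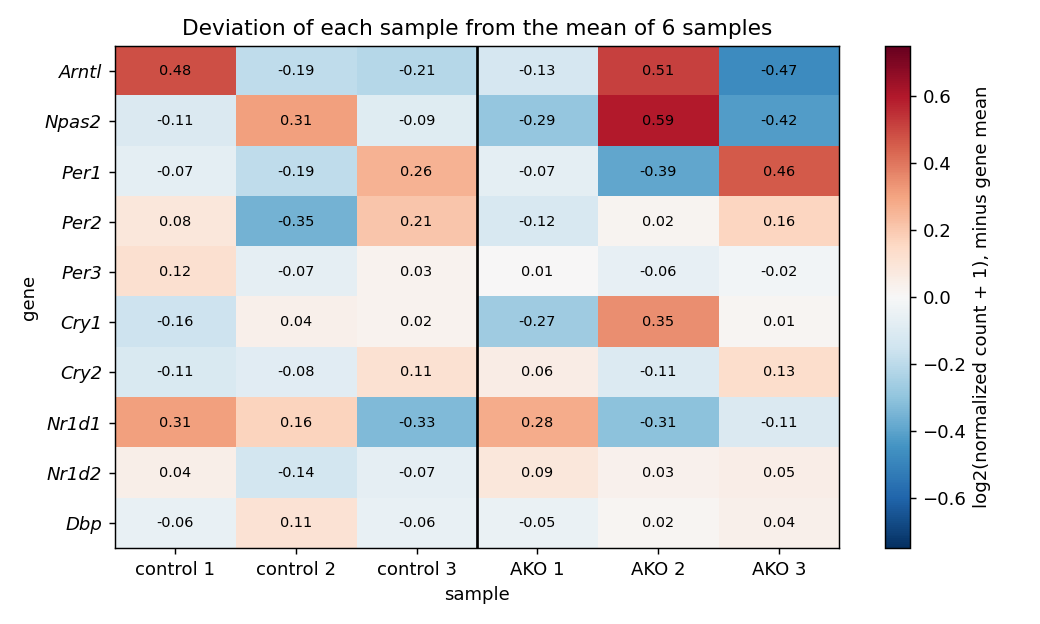
Deviation of each sample from the mean of the 6 samples on the log2(normalized count + 1) scale for the 10 clock genes, red above and blue below the mean, with the value printed in each cell and a line between control and AKO. AKO replicates 2 and 3 are opposite in Arntl, Npas2 and Per1, while the rows of Per3, Nr1d2 and Dbp are pale throughout.

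The cellular makeup of the samples moved with Arntl. The summed normalized counts of 5 listed B and T lymphocyte markers, including the B cell receptor component Cd79a, were 638 in control replicate 1 and 839.6 in AKO replicate 2, and from 58.8 to 81.6 in the other 4 samples. These 2 samples were those with the highest Arntl. Over the 6 samples Pearson's r between Arntl and the mean log2 level of these markers was 0.98, a value that rests on the 2 high samples. The inguinal depot holds a lymph node, and the part of lymphocyte RNA in the level of Arntl was not tested. With the lymphocyte level as a covariate in limma, 0 of the 10 genes were called and 0 had a p under 0.05 before adjustment. Leaving out these 2 samples gave the same counts of 0 and 0, where limma called 0 of all genes. The groups, then 2 samples each, did not overlap for 3 of the 10, against 42.3% of all genes. These 3 were Npas2 and Cry1 (lower in AKO) and Nr1d2 (higher). Skeletal muscle markers were also uneven, with sums of 163, 27447 and 15176 in control and 20329, 77879 and 119527 in AKO. Per3 was highest in control replicate 1, where muscle markers were lowest, with an r of -0.90 between Per3 and the mean log2 level of these markers. In bulk tissue fewer cells of a type and less RNA per cell cannot be told apart.

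**Figure D5:**
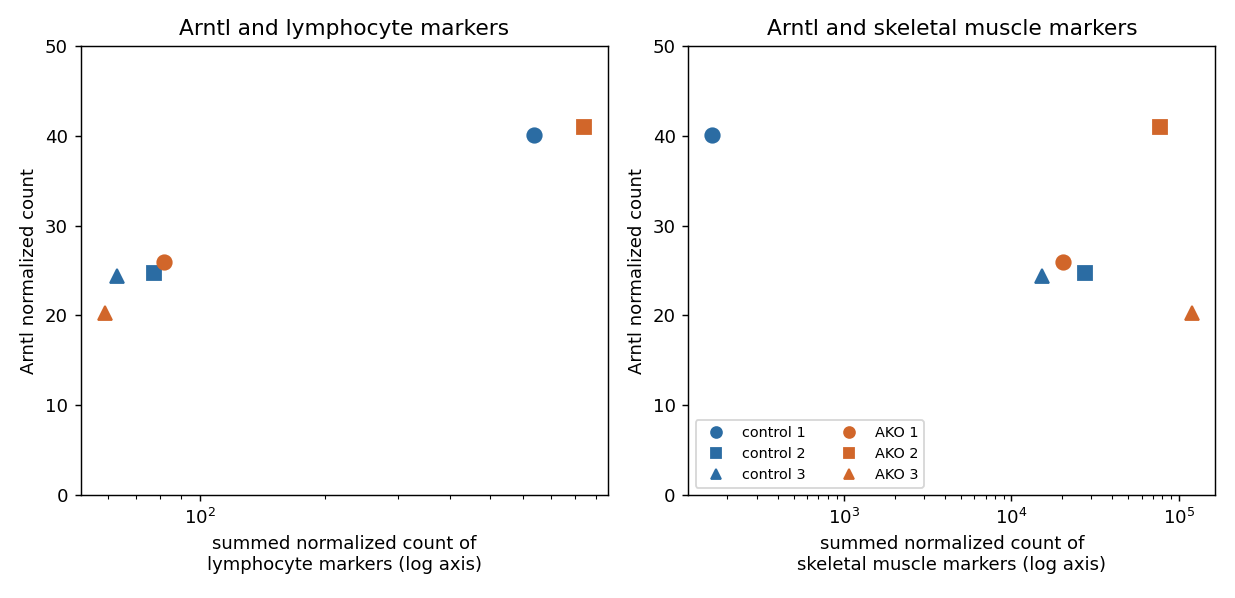
Normalized counts of Arntl (linear axis) against the summed normalized counts of lymphocyte markers (left) and skeletal muscle markers (right), each on a log axis, for the 6 samples. Control replicate 1 and AKO replicate 2 stand apart at upper right on the left, with 638 and 839.6 for the markers, while muscle markers were lowest in control replicate 1.

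Further clock genes behaved like the 10. Of 22 such genes, 0 were called by limma, DESeq2 or edgeR, against 0.0144%, 0.901% and 0.0144% of all genes. Before adjustment 0 had a p under 0.05 in limma, against 9.10% of all genes. Their median log2 fold change was 0.03. Clock, the main partner of ARNTL, averaged 516 ± 42.1 normalized counts in control against 501 ± 86.1 in AKO (SD, n = 3 each). Per kilobase, Clock was from 8.36 to 21.8 times as high as its paralog Npas2 in the same sample, and Arntl2 from 3.90 to 7.82 times as high as its paralog Arntl. Tef and Hlf, which encode relatives of DBP, had log2 fold changes of 0.06 and -0.03, and Nfil3, which encodes a repressor at the same D-boxes, had -0.18 (SE 0.24). Rora, whose product opposes the REV-ERB proteins at ROR elements, had a log2 fold change of 0.20. It was the 1 gene of the 22 without overlap, where 14.5% of all genes had none. Rora had 974, 809 and 965 normalized counts in control and 1019, 1143 and 996 in AKO (adjusted p = 0.568 from limma). Bhlhe41 (0.31) and Ciart (0.18), which encode further repressors of the loop, also missed the threshold, with adjusted p-values of 0.623 and 0.759 from limma.

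Among 12 known outputs of the clock, 0 were called by limma and 2 had a p under 0.05 before adjustment, of which 1 is described. The shares of all genes were 0.0144% and 9.10%. Ccrn4l, the name in the table for the gene of nocturnin, a rhythmic phosphatase of NADP(H), had 1397, 1361 and 1267 normalized counts in control and 1051, 815 and 1040.3 in AKO. The AKO values were all below the controls, at a log2 fold change of -0.48 (SE 0.11) and an adjusted p of 0.298 from limma. DESeq2 on whole reads called Ccrn4l, with an adjusted p of 0.010005, where it called 0.901% of all genes. The most abundant outputs, Por and Nampt, had a log2 fold change of -0.09 each, and the median of the 12 genes was -0.05.

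Inputs that can reset or drive Per1 were read from lists of their other targets. Of 12 glucocorticoid-responsive genes, 0 were called by limma, against 0.0144% of all genes. Log2 fold changes were above 0 for 9 of them and below 0 for 3, with a median of 0.21 beside 0.01 over all genes tested. Their sole member with a p under 0.05 before adjustment, against 9.10% of all genes, was Pdk4, 1 of the 3 below 0. Pdk4 is a kinase gene that restrains pyruvate oxidation and also follows fasting and PPAR activity. It had 5438, 8743 and 4960 normalized counts in control and 2587, 2996 and 3031 in AKO. All AKO samples were below all controls, and the log2 fold change was -1.11 (SE 0.19). Its adjusted p was 0.205 from limma and 0.00700 from DESeq2. Angptl4, the other of the 2 most abundant members and also 1 of the 3 below 0, had a log2 fold change of -0.43 (adjusted p = 0.623 from limma). Of 10 immediate early genes, which follow acute signals and handling, 0 were called and 0 had a p under 0.05 before adjustment, against 0.0144% and 9.10% of all genes. Log2 fold changes were above 0 for 9 of the 10 and below 0 for 1, with a median of 0.20. Dusp1, a member of both lists, had 890, 1118 and 1468 normalized counts in control and 1287, 777 and 2531 in AKO. Its 2 highest samples, control replicate 3 and AKO replicate 3, were also the 2 highest for Per1, and its lowest sample, AKO replicate 2, was the lowest for Per1. Dusp1 was picked for this after its values were seen, and other members of the lists were mixed. AKO replicate 2 was the highest sample for Fkbp5, at 2309 normalized counts, but the lowest for Ier2, at 297. A link of either list to Per1 was not tested. Jun, the other abundant member, had a log2 fold change of 0.18 (adjusted p = 0.651 from limma). Of 10 cold-shock and heat-shock genes, 0 were called and 1 had a p under 0.05 before adjustment, against 0.0144% and 9.10% of all genes. The median was -0.06. Hspd1, a mitochondrial chaperone gene, had the only p under 0.05 in that list, with a log2 fold change of -0.22 (adjusted p = 0.539 from limma), and Hspa8, the other abundant one, had -0.16 (adjusted p = 0.551).

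The genes most like Arntl and Dbp over the 6 samples were taken from 10295 genes that averaged 100 or more normalized counts. For Arntl they were Vprbp, Adgrl4, Mcmbp, Mdc1 and Atrn, with Pearson's r from 0.98 to 0.99. Each of the 5 had its highest values in control replicate 1 and AKO replicate 2, as Arntl did. For Dbp they were Ppp4c, Wibg, Trmt1, 0610009B22Rik and Fam212b, with an r of 0.99 each, and each peaked in control replicate 2. With 6 samples and this many genes, such values describe a pattern only.

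For the series as a whole, the listed genes held between 17570335 and 18373707 reads per sample. The adipocyte markers Adipoq, Plin1, Fabp4, Cidec, Lep and Pparg were all well expressed, with sums from 269884 to 325569. Beige adipocyte markers (Ucp1, Cidea, Dio2, Elovl3, Cox7a1 and Cox8b) were lower in AKO without overlap for 6 of 6, against 14.5% of all genes. Their median log2 fold change was -1.22. Limma made 1 call among them, Elovl3 (adjusted p = 0.035). DESeq2 on whole reads called all 6, with adjusted p-values from 5.6e-22 (Elovl3) to 0.00033 (Cox8b). Of all genes, limma called 0.0144% and DESeq2 0.901%. In limma, Elovl3 missed the threshold with the replicate block (adjusted p = 0.053) and with the muscle covariate (adjusted p = 0.122). It also missed it with any 1 sample other than control replicate 2 left out (adjusted p from 0.0929 to 0.117), and without control replicate 1 and AKO replicate 2 together (adjusted p = 0.224). Of 6 macrophage markers, 4 had a p under 0.05 before adjustment, against 9.10% of all genes, all higher in AKO, and 0 were called by limma. Sums of mammary epithelial markers ran from 18.3 to 1239 and those of endothelial markers from 16093 to 18947, with 0 called and 0 with a p under 0.05 before adjustment in either list.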

How the data were processed

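The authors sequenced RNA of iWAT from 3 control and 3 AKO samples. Per the paper, reads were aligned with STAR to GRCm38.p6, counted per gene with featureCounts on GENCODE M25 and tested with DESeq2. The deposited values are a signal per gene, that is, counts scaled by each sample's DESeq2 size factor and not by gene length. The authors' log2 fold changes, p-values and adjusted p-values in the deposited table were not used.

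The main test was limma (version 3.58.1, R 4.3.3) with a variance trend on log2(value + 1), as planned for normalized values, for 13855 of 16538 genes with a mean of at least 10, with Benjamini-Hochberg adjustment over all of them. A fold change on this scale understates that of low genes. Whole reads were recovered for 100% of values, since each value is a multiple of the value of 1 read (within 0.01 of a whole number), and were tested with limma-voom, DESeq2 1.42.0 and edgeR 4.0.16. Single genes were also compared by a 2-sided exact permutation test, whose smallest p for 3 against 3 is 0.1. The tests were checked on simulated data.

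The 10 genes and all lists were chosen with earlier results of these data known. Named were the 10 clock genes, Nrg4, chosen further clock genes, list members with a p under 0.05 before adjustment, the 2 most abundant of each list and the 5 genes most like Arntl and Dbp. Thra, Sphk2, Arntl2, Fbxl21 and Cd79a, and Dusp1, Fkbp5 and Ier2 beside Per1, were named after their values were seen. Exon lengths and overlaps came from GENCODE M21, an earlier annotation of GRCm38. Of the genes this rule names, 2 are not reported here. Ccrn4l was matched to Noct by its RefSeq synonym, and 1 lymphocyte marker, Trbc2, was not listed. Replicates of a group were not repeats of 1 library, as their reads differed far beyond counting error (chi-square over its degrees of freedom, 9.86 to 20.1). The labels do not pair samples, and p-values measure the spread between pools of 2 mice. Alternatives were other pseudocounts, filters, tests and scaling, a replicate block, a muscle or lymphocyte covariate, and leaving out samples.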

Additional observations from a re-analysis of the deposited data

How the results depend on the processing

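None of the 10 clock genes and none of the 22 further clock genes was called under any of the 16 alternative settings listed at the outset or the 2 added after seeing the data (the lymphocyte covariate, and leaving out control replicate 1 and AKO replicate 2 together). The smallest adjusted p of a clock gene was 0.349. The number of clock genes with a p under 0.05 before adjustment was 1 with the muscle level as a covariate and 1 without control replicate 1, in each case Nr1d2 (adjusted p = 0.349 and 0.488 from limma), and 0 under the others. With each sample left out in turn that number thus ran from 0 to 1, and the number of clock genes whose groups did not overlap from 0 to 2 (Nr1d2 without control replicate 1, Per3 and Dbp without control replicate 2, Npas2 and Nr1d2 without AKO replicate 2), where from 21.9% to 28.9% of all genes did not overlap. Without control replicate 1 and AKO replicate 2 together it was 3, where 2 samples face 2 and 42.3% of all genes did not overlap. The direction of these small differences was not stable: 33 of 179 log2 fold changes under the alternatives had the other sign, over 8 of the 10 genes, and Cry2 and Nr1d2 were the 2 that kept theirs. Scaling by TMM factors gave a median log2 fold change of all genes of 0.02, against 0.01.

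For samples with the same replicate number, the correlations of their deviations from the group means were 0.14, -0.35 and 0.24. Those with different numbers ran from -0.50 to 0.34. Whether samples with the same number shared handling was not tested. With the replicate block, limma called 0 of the 10 clock genes and 0 had a p under 0.05 before adjustment, and the 2 genes it called over the whole table shared 0 with the 2 called in its absence. DESeq2 on whole reads called 149 genes over the whole table against 2 by limma, and the filter of at least 10 in every sample gave 6. Depth limits Arntl and Npas2, with from 9 to 42 reads per sample. The time of collection is not given in the sources used here, so a difference in it between the groups cannot be told apart from genotype.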
